A study of Mus musculus with 50 samples.

Results

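The 10 mRNAs of regulatory proteins described here were chosen in NIH 3T3 derivatives because they stood near the top of all genes in heavy polysome RNA relative to total RNA. They encode the transcription factors Sox4, Nr2f2 and Bach1, the chromatin enzyme Phf2, the RNA regulators Samd4b and Ddx6, the cell cycle protein Ccnd2, the actin organiser Palld, the vitamin B6 enzyme Pdxk and the lipid enzyme Lpin2. The 10 genes were picked from 12644 tested genes (4807 of them detected on every array) by the same heavy minus total values described here, so their high levels are a description and carry no test. Every probe that the platform table pairs with these symbols was taken, 28 probes in all, and the probe with the highest mean signal stands for each gene. That mean covers heavy and total arrays together, so the choice of probe is not independent of its heavy signal. All 10 genes passed the filter on dim probes, and the 10 probes that stand for them were detected on all 50 arrays.

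NIH 3T3 is an established mouse fibroblast line. The inducible derivative carries an eIF4E gene that mifepristone, a steroid abbreviated mif here, switches on, and the control derivative is non-inducible. RNA was taken from 25 cultures in 9 groups after 4 h of treatment, and each culture gave 1 array of RNA from the fraction titled heavy, that is polysome-bound RNA, and 1 array of total RNA. The inducible line was measured without mif and drug, with mif alone, with mif plus 10, 50, 100 or 200 µM of 4Ei-1, which inhibits eIF4E, and with mif and 4Ei-4, a weaker analog, at 200 µM. The non-inducible line was measured without drug, with mif and without it. All cultures received cycloheximide, which holds ribosomes on mRNA, before lysates were run on sucrose gradients. Each group had 3 cultures except the non-inducible line without mif, which had 1. The labels do not say whether replicates were separate cultures grown on different days or whether either derivative is a clone. The labels assign the cultures to 4 processing batches, and all cultures with 4Ei-4 or of the non-inducible line lie in batch 4, which holds nothing else.

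The cap-binding protein eIF4E recruits ribosomes to mRNAs, and mRNAs with long or structured leaders are described as depending on it more than others. An mRNA bound by many ribosomes sediments in the heavy fraction. The log2 signal of heavy polysome RNA minus that of total RNA is called efficiency here. It measures how far an mRNA is concentrated in that fraction relative to other mRNAs, because all arrays were given the same distribution of signal. Of the 10 proteins, cyclin D2 drives entry into S phase with its kinase partners, and Ddx6 is a helicase that represses translation and promotes mRNA decay in P-bodies.

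Between 23.9% and 37.8% of probes were detected on the heavy arrays and between 25.5% and 39.9% on the total arrays. Of 9 fibroblast markers, 8 were detected on every array and the ninth, Pdgfrb, on 48. Of the epithelial, haematopoietic, endothelial and skeletal muscle markers none was detected on every array: Cdh1 was detected on 19 of 50 arrays, Myog on 6 and the others on at most 1. Eif4e, the induced gene, changed with mif by 0.39 ± 0.20 (SE) in total RNA of the inducible line (limma adjusted p = 0.655), and its probe was detected on 17 of 50 arrays, so these arrays do not show whether eIF4E was induced.

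For 8 of the 10 genes RefSeq's promoter table (GRCm38.p6) holds the sequence around the outermost annotated start, and 5 of these 8 hold a GC box (GGGCGG on either strand) in the 250 bases before it, against 51.5% of 5623 tested genes with such an entry. The windows are shown as a description, and a link of these motifs to the heavy minus total values was not tested. The motif is in capitals, read on the strand of the gene. The Bach1 and Samd4b windows open with another match, left in lower case.
Bach1, chr16:87698894-87698923, plus strand: gggcggaaccggGGGCGGggctttagcgcc
Lpin2, chr17:71183496-71183525, plus strand: cgcggccggcggGGGCGGagctcgcgtcac
Pdxk, chr10:78465016-78465045, minus strand: accgccttcagcCCGCCCctcgccgcgcgg
Phf2, chr13:48870965-48870994, minus strand: ccgcggcccggcGGGCGGctcccggcgcgg
Samd4b, chr7:28436318-28436347, minus strand: gggcggggccagGGGCGGtgacgcacggcg

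A CCAAT box (CCAAT on either strand) was found before Sox4 and Nr2f2, 2 of 8, against 37.6% of the tested genes. These 2 windows lack a GC box and are shown for contrast.
Sox4, chr13:28953700-28953729, minus strand: ggataaagaagcgcgaggcggaATTGGggt
Nr2f2, chr7:70366891-70366920, minus strand: aaaatgaggattCCAATtgattcctaggaa
TATAAA (either strand) was in 0 of the 8 and in 10.5% of the tested genes, and a transcript start of C followed by 4 pyrimidines was in 0 of the 8 and in 2.1%. The 250 bases had a median GC content of 65.8% in the 8 genes and 57.6% in the tested genes, but the members were spread widely, from 43.2% for Palld to 85.6% for Phf2. In the 50 bases after the start the medians were 68% and 64%, with Phf2 at 94% and Samd4b and Lpin2 at 86%, while Nr2f2 and Palld had 48%. These are matches of letters and composition only.

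On the normalized scale, which is relative to other genes, heavy polysome RNA exceeded total RNA for each of the 10 genes in 25 of 25 cultures. The mean efficiency over 25 cultures ran from 1.90 for Lpin2 to 2.39 for Sox4 on the log2 scale, 3.74-fold to 5.24-fold. All genes detected everywhere had a median of 0.19 and a 99th percentile of 1.56. Among those 4807 genes the members held ranks 1 to 7, 9, 10 and 12. The nearest non-members were Bcl9l (1.96, rank 8), Dpysl3 (1.91, rank 11) and Crtc3 (1.86, rank 13), which shows how little separated the last members from the next genes. Among all 12644 tested genes the members held ranks 2 (Sox4), 4, 6, 9, 10, 12, 13, 15, 17 and 19 (Lpin2). Non-members held the ranks between, and the highest mean of a tested gene was 2.41.

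**Figure D1:**
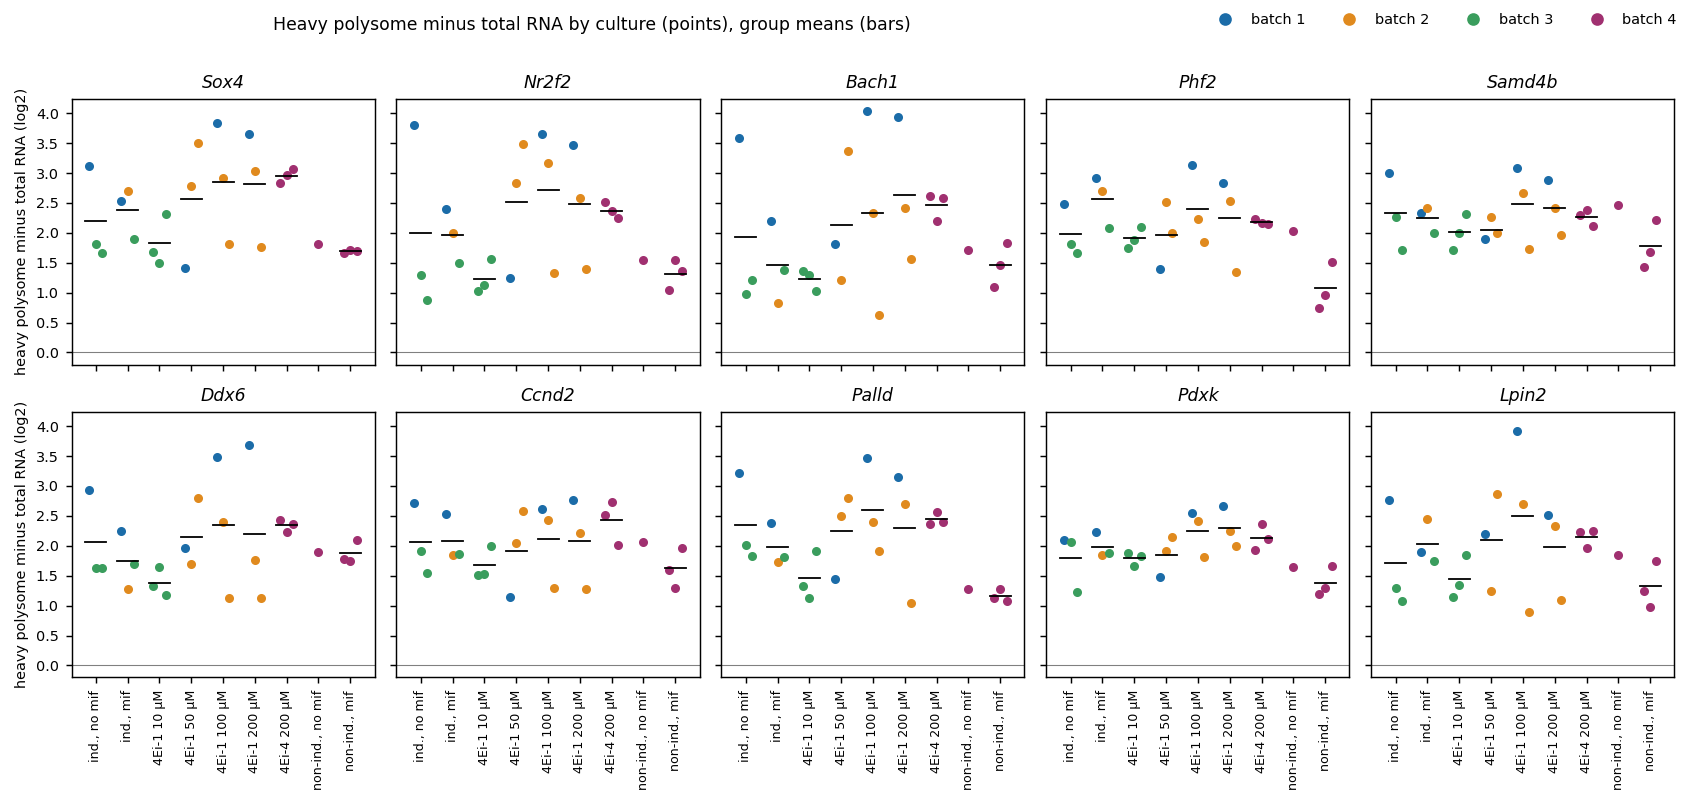
Efficiency (log2 heavy polysome minus log2 total RNA, y axis) of the 10 genes in each of the 25 cultures, by group (ind., inducible line; non-ind., non-inducible line; the 4Ei groups are the inducible line with mif), with points coloured by processing batch and a black bar at the mean of each group of 3. Every point lies above 0, from 0.63 (Bach1) to 4.04 (Bach1), and most groups next to each other in order of mean overlap. In 9 of the 10 genes each 4Ei-4 culture lies above each non-inducible culture with mif, where 22.5% of all tested genes do so.

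Among the transcription and chromatin regulators, Sox4, an HMG-box transcription factor of progenitor cells, had the highest mean of the 10 (2.39 ± 0.74, SD, n = 25). Its efficiency was 3.12, 1.81 and 1.66 in the inducible line without mif and 2.54, 2.70 and 1.89 with mif. With 4Ei-1 it was 1.68, 1.5 and 2.31 at 10 µM, 1.41, 2.79 and 3.51 at 50 µM, 3.83, 2.91 and 1.82 at 100 µM, and 3.65, 3.03 and 1.77 at 200 µM. It was 2.83, 2.97 and 3.07 with 4Ei-4, 1.82 in the non-inducible line without mif, and 1.67, 1.71 and 1.70 in that line with mif. The cultures with 4Ei-4 and the non-inducible line were tight, whereas the 3 cultures of each 4Ei-1 dose from 50 µM up were far apart and overlapped those of the other doses. Its highest group was 4Ei-4 and its lowest the non-inducible line with mif.

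Nr2f2 (COUP-TFII), an orphan nuclear receptor of mesenchyme and vessels, had 2.05 ± 0.92, with a lowest value of 0.87, a median of 1.57 and a highest of 3.81. Its median lay well below its mean. Bach1, a haem-regulated repressor that competes with NRF2 for its DNA sites, varied most of the 10 (1.95 ± 0.97, from 0.63 through a median of 1.72 to 4.04). It held rank 1 of the 4807 genes with 4Ei-1 at 100 µM in replicate 1 and rank 1398 in replicate 3 of the same dose. Phf2, a histone lysine demethylase with a PHD finger, had 2.04 ± 0.58 (lowest 0.74, median 2.08, highest 3.13). Its highest group mean belonged to the inducible line with mif alone (2.91, 2.70 and 2.08 in the 3 cultures).

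Of the RNA regulators, Samd4b, a mammalian Smaug protein that binds stem-loops and recruits deadenylation, was one of the steadiest at 2.21 ± 0.42 (lowest 1.43, median 2.26, highest 3.08). Ddx6 had 2.01 ± 0.68 (lowest 1.13, median 1.78, highest 3.68). Ccnd2, cyclin D2, had 2.00 ± 0.51 (lowest 1.14, median 1.99, highest 2.76). Palld, palladin, which bundles and anchors actin filaments, had 2.03 ± 0.72 (lowest 1.05, median 1.92, highest 3.46).

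The enzyme Pdxk, pyridoxal kinase, which makes the active form of vitamin B6, had the smallest spread of the 10 (1.93 ± 0.39, lowest 1.19, median 1.92, highest 2.67). Lpin2, a phosphatidate phosphatase of triglyceride and phospholipid synthesis, had 1.90 ± 0.73 (lowest 0.89, median 1.85, highest 3.92). Its log2 total RNA signal lay between 5.18 and 7.19. Among genes detected on every array its mean total signal was at percentile 1.12, so the signal subtracted was dim. Nr2f2, Samd4b, Bach1, Phf2 and Palld were at percentiles 5.06, 7.72, 13.9, 18.1 and 18.5. Pdxk, Ddx6, Ccnd2 and Sox4 were at 50.8, 56.1, 62.9 and 72.5. The highest group was 4Ei-4 for Sox4, Ddx6 and Ccnd2, 4Ei-1 at 100 µM for Nr2f2, Samd4b, Palld and Lpin2, 4Ei-1 at 200 µM for Bach1 and Pdxk, and mif alone for Phf2. The lowest was the non-inducible line with mif for 7 genes and 4Ei-1 at 10 µM for Nr2f2, Bach1 and Ddx6. Of the 8 steps between neighbouring groups in this order, 6 to 8 overlapped in the values of their cultures for every gene, so the order between neighbours is not resolved beyond their spread.

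The height of these levels depended on the processing. With no background correction Sox4 had 2.22 (rank 1), Ccnd2 1.79 (rank 2), Nr2f2 1.32 (rank 28) and Lpin2 1.07 (rank 125). With the authors' deposited log2 values the median of the members' means was 1.38 in place of 2.02. Sox4 then kept rank 1, Ccnd2 had rank 2, Ddx6 rank 4 and Pdxk rank 5. Phf2 moved to rank 18, Palld to 17, Samd4b to 30, Bach1 to 46, Nr2f2 to 56 and Lpin2 to 241, the last with a mean of 0.88.

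Other probes of the same genes did not always show the enrichment. Of the 28 probes 13 were detected on all 50 arrays, and 7 other probes of 5 genes were detected on at least 40 arrays, with a median efficiency of 1.09. For Ccnd2 the second bright probe gave the same 2.00 ± 0.52 and followed the first over the 25 cultures (Pearson's r = 0.85). For Pdxk it gave 1.66 ± 0.92 (41 arrays, r = 0.62) and for Palld 1.09 ± 0.51 (49 arrays, r = 0.55). For Nr2f2 a second probe detected on all 50 arrays gave 0.27 ± 0.58 and did not follow the first (r = -0.13). For Ddx6 the 3 other well-detected probes gave 0.10 ± 0.37, 1.16 ± 0.52 and 0.70 ± 0.63, with r of -0.06, 0.27 and -0.14. Sox4's second probe (27 arrays) gave 0.99 ± 0.61. Phf2 and Samd4b have 1 probe each, and the other probes of Bach1 and Lpin2 were detected on at most 10 arrays, so these 4 genes have no well-detected second probe. The Ddx6 probes on 48 and 46 arrays were above 0 in 25 and 22 of 25 cultures, and the bright one with a mean of 0.10 in 17. In total RNA that bright probe had a higher mean log2 signal than the probe that stands for Ddx6 (9.16 against 8.90). Which transcript form each probe reads was not examined.

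**Figure D2:**
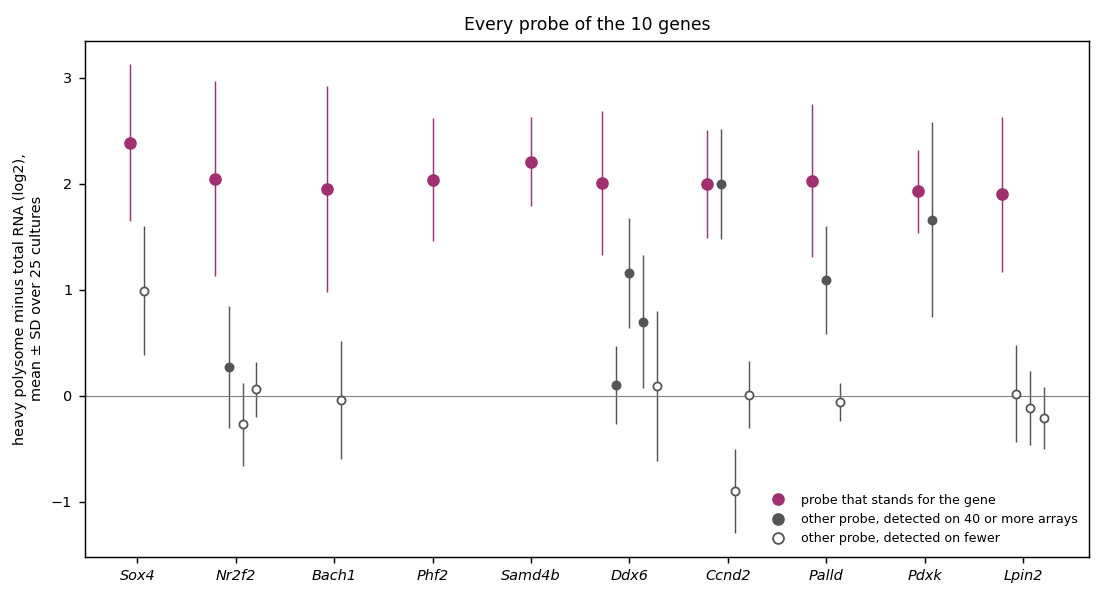
Mean efficiency with its SD over 25 cultures (y axis, log2) for each of the 28 probes, by gene (x axis). The probe that stands for each gene lies between 1.90 and 2.39, whereas the other probes range from -0.90 to 2.00.

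The 10 mRNAs varied together from culture to culture. Over the 25 cultures the 45 pairs of members had a median Pearson's r of 0.77 (0.50 to 0.94) in efficiency, and 0.78 after group means were removed. The median absolute r over all pairs of genes detected everywhere was 0.32. That background was not limited to genes of high efficiency, and non-members that followed a member as closely are named below. These are descriptions over points that share their arrays and batches. The median of the 10 in a culture ran from 1.22 (non-inducible line with mif, replicate 1) to 3.48 (4Ei-1 at 100 µM, replicate 1). In batch 3 its 6 cultures lay between 1.43 and 1.89. In batch 2 replicate 2 and replicate 3 of the same dose differed, by 2.42 against 1.53 at 100 µM and by 2.41 against 1.37 at 200 µM, where the order at 50 µM was the opposite, 2.15 against 2.80.

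The spread of all genes also differed between cultures, in part with the members. The SD of efficiency over the tested genes was 0.96 in the culture with the highest members' median and 1.04 with 4Ei-1 at 200 µM in replicate 1 (members' median 3.02), and ran down to 0.62 in the inducible line without mif in replicate 3 (members' median 1.59). Other cultures went the other way: replicate 3 at 100 and at 200 µM 4Ei-1 had SDs of 0.85 and 0.87 with members' medians of 1.53 and 1.37, and the 4Ei-4 cultures had SDs of 0.65 to 0.68 with medians of 2.25 to 2.40. The correlation between heavy and total RNA over genes ran from 0.73 to 0.88 in the same cultures. The part of this spread in the members' levels was not tested. With efficiency divided by this SD, 6 in place of 1 of the members were called higher in the contrast inside batch 4, where the share of all tested genes called higher went from 6.58% to 10.6%. All 10 genes ranked within the top 100 of 4807 in 10 of 25 cultures. The fewest were 2 of 10, with 4Ei-1 at 200 µM in replicate 3.

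**Figure D3:**
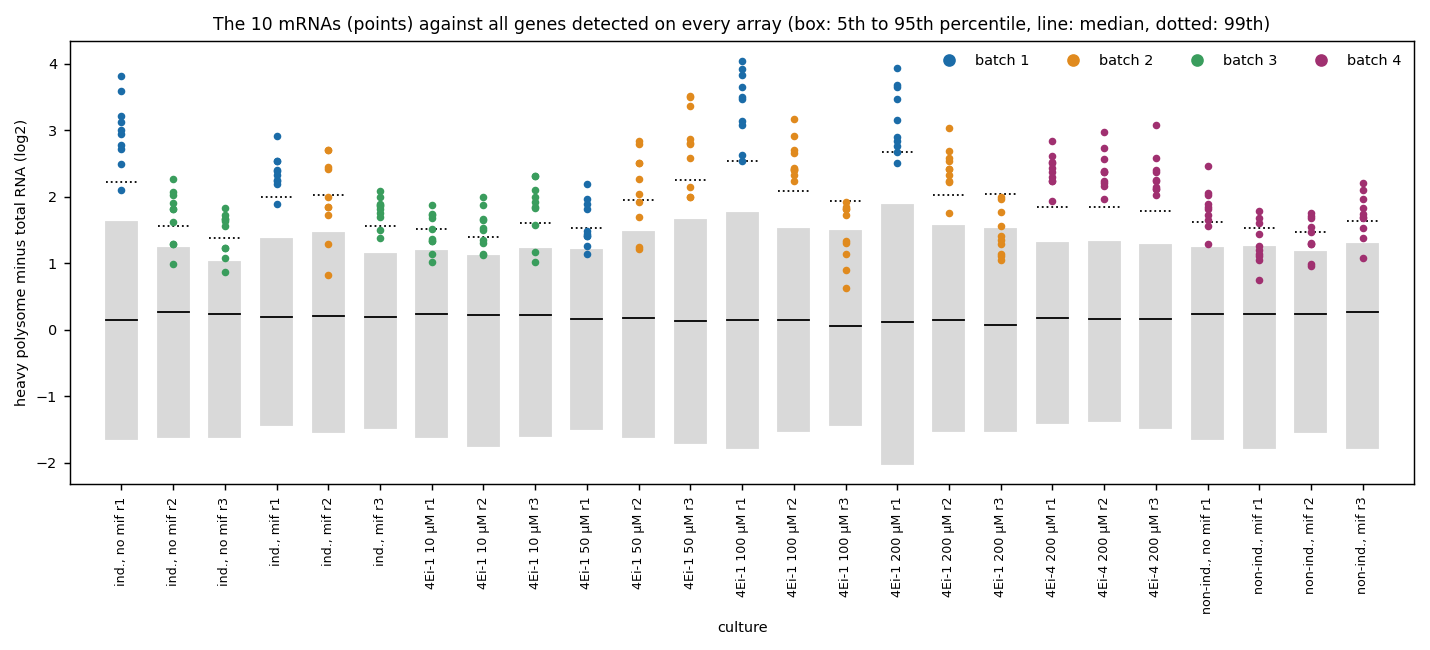
Efficiency (y axis, log2) of the 10 mRNAs (points, coloured by batch) in each culture (x axis), over grey boxes from the 5th to the 95th percentile of the genes detected on every array, with a line at the median and a dotted line at the 99th percentile. The members' median ranges from 1.22 to 3.48 between cultures while the median of all these genes lies between 0.05 and 0.27.

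Of the genes detected everywhere that are not members, the profile over cultures most like each member was that of Pappa for Sox4 (r = 0.95), Yeats2 for Nr2f2 (0.93), Usp37 for Bach1 (0.93) and Ddx6 (0.91), Afdn for Phf2 (0.88), Bahcc1 for Samd4b (0.83), Ppargc1b for Ccnd2 (0.88), Zfp318 for Palld (0.94), Bcl9l for Pdxk (0.88) and Stxbp4 for Lpin2 (0.83). The members' median profile was most like Zfp318 (0.93), Ppp1r12a, Ankrd11 and Sox5 (each 0.92) and Nav1 (0.91), over 25 cultures and 4797 genes compared.

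Induction of eIF4E by mif asked whether these mRNAs become more concentrated on heavy polysomes relative to other mRNAs. None of the 10 was called in efficiency, heavy polysome or total RNA by limma (adjusted p below 0.05), where 0%, 0.403% and 0.625% of the tested genes were. The count of members at an unadjusted p below 0.05 was 0, 0 and 2. Efficiency changed by a median of -0.17 over the 10 (-0.53 for Bach1 to 0.42 for Phf2), with 95% intervals of half-width 0.59 to 1.29, and the interval stayed within 1 of 0 for 2 of 10. In total RNA Pdxk changed by -0.62 ± 0.17 (adjusted p = 0.157) and Sox4 by -0.72 ± 0.26 (adjusted p = 0.38). The members' median change in efficiency was -0.68 within batch 1 and 0.19 within batch 3, so its direction was not the same in both batches.

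The 4Ei-1 doses asked the reverse, whether an eIF4E inhibitor lowers the members on heavy polysomes relative to other mRNAs. A loss shared by all mRNAs could not appear, because the normalization gave all arrays the same distribution of signal. None was called at 10 µM, where 0% of the tested genes were called in efficiency, polysome or total RNA, with 0 members at an unadjusted p below 0.05. At 50 µM 0 members were called against 0.0158%, 0% and 0.158% of genes (0, 0 and 1 members unadjusted), and at 100 µM 0 against 0.316%, 0.0949% and 0.482% (0, 0 and 2 unadjusted). At 200 µM 0 were called against 0.403%, 0.0158% and 0.19% (0, 0 and 2 unadjusted). In efficiency the members' median change was -0.03, -0.09, 0.26 and 0.11 at 10, 50, 100 and 200 µM. At 200 µM it ran from -0.49 (Phf2) to 1.10 (Bach1), with half-widths of 0.59 to 1.29. The slope over doses was 0.05 per 100 µM (-0.16 to 0.47), with 0 members called against 0.0237%, 0% and 0.0395% of genes (0, 0 and 2 unadjusted). From 50 to 200 µM the median was 0.21, with 0 called against 0.237%, 0.245% and 0.0395% (0, 0 and 0 unadjusted). Each set of 3 values is in the order efficiency, polysome RNA, total RNA.

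The size, and at 50 and 200 µM the sign, of these medians differed between batches. At 50 µM the members' median was -0.85 in batch 1 and 0.45 in batch 2, at 100 µM 1.17 and 0.13, and at 200 µM 0.69 and -0.06. From 50 to 200 µM it was 1.66 in batch 1 and -0.45 in batch 2. Each batch 1 value rests on 1 culture a group and has no replicate check.

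Among the doses against no drug, Ddx6 and Bach1 had the smallest adjusted p-values of the 10, in total RNA. Bach1 had log2 total RNA of 7.45, 8.18 and 7.24 with mif alone, 6.23, 6.95 and 7.21 at 100 µM and 6.45, 7.47 and 6.54 at 200 µM. At 100 µM each culture lay below each drug-free culture, by little (7.21 against 7.24 at the closest). That held for 1 of the 10 members and for 2.84% of all tested genes. The change was -0.94 ± 0.28 at 100 µM (adjusted p = 0.138) and -0.92 ± 0.28 at 200 µM (adjusted p = 0.18). Ddx6 had 8.79, 9.84 and 8.81 with mif alone and 8.27, 8.75 and 8.95 at 100 µM, which overlap, and a change within batches of -0.73 ± 0.17 (adjusted p = 0.0691). At 200 µM it changed by -0.57 ± 0.17 (adjusted p = 0.177). The Ddx6 change at 100 µM passed the threshold without 100 µM replicate 1 (-0.88, adjusted p = 0.0441) or drug-free replicate 3 (-0.80, adjusted p = 0.0318). Without that drug-free culture Bach1 passed too (-1.12, adjusted p = 0.0413). In bulk RNA, fewer cells with an mRNA and less of it in each cell cannot be told apart.

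**Figure D4:**
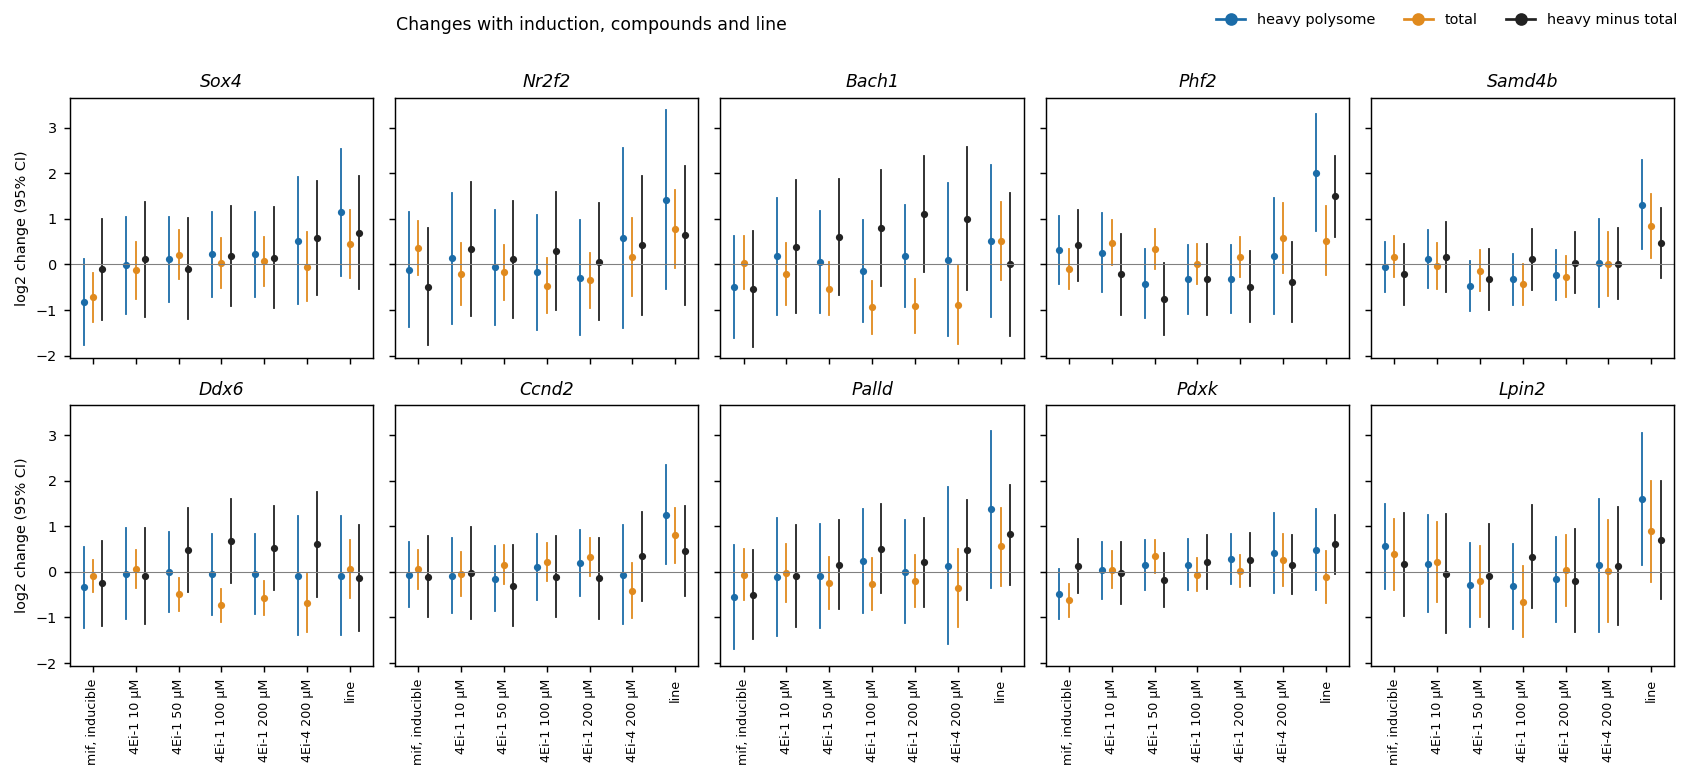
Fitted log2 changes with 95% intervals (y axis) for the 10 genes in heavy polysome RNA, total RNA and efficiency, for mif in the inducible line, each 4Ei-1 dose and 4Ei-4 against mif alone, and the inducible against the non-inducible line (x axis). None passed an adjusted p of 0.05, and for the lines the points of polysome RNA lie above 0 in 9 of 10 genes, where 53.2% of all tested genes do.

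The analog 4Ei-4 was given at 1 dose, which equals the highest dose of 4Ei-1. Against mif alone, 0 members were called with 4Ei-4 (0.00791% of genes in efficiency, 0% on polysomes, 0.00791% in total RNA), with 0, 0 and 2 members at an unadjusted p below 0.05. Their median efficiency change was 0.38, with 9 of 10 above 0, where 50.8% of tested genes were. The members varied together between cultures, so these 9 are not independent of each other. The 2 compounds at 200 µM for 4 h formed 1 pair. The difference of 4Ei-1 from 4Ei-4 in efficiency ran from -0.37 (Ccnd2) to 0.20 (Bach1), with half-widths of 0.65 to 1.60, and 0 members were called against 0%, 0% and 0.00791% of genes (0, 0 and 1 unadjusted). For Sox4 the interval was -1.47 to 1.05 and for Samd4b -0.65 to 0.92, so differences of this size were not resolved. Both compounds were compared with the same 3 drug-free cultures, and 4Ei-4 lies in another batch than these.

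The contrast inside batch 4 was the one in which members were called. It sets the inducible line with mif and 4Ei-4 at 200 µM against the non-inducible line with mif, 3 cultures each, and the line and the compound cannot be told apart in it. On heavy polysomes 8 of 10 members were higher in the inducible line with 4Ei-4 and 0 lower, where 16% of the tested genes were called higher and 15.5% lower. In total RNA 3 were higher and 1 lower, where 12.6% and 12% of genes were. In efficiency 1 was higher and 0 lower, where 6.58% and 5.11% were. Other settings called 0 to 6 members higher, where 3.79% to 19.4% of their genes were. The members were picked by heavy minus total values of all 25 cultures, these included, and most cultures are of the inducible line. Their counts on polysomes and in efficiency are therefore not independent of that choice. Genes detected on every array, as all 10 members were, were called more often: fitted alone, 33.3% of them were higher and 24.9% lower on polysomes (8 and 0 members), 30.5% and 18.3% in total RNA (4 and 1), and 19.4% and 16.2% in efficiency (4 and 0). Between 32.6% and 34.2% of probes were detected on the heavy arrays with 4Ei-4, and between 36.1% and 37.8% in the non-inducible line, and the part of this in the differences was not tested.

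Phf2 had the highest polysome difference of the 10. Its log2 heavy polysome RNA was 10.11, 10.01 and 9.80 with 4Ei-4 against 7.63, 7.55 and 8.13 in the non-inducible line, and its total RNA was 7.88, 7.85 and 7.66 against 6.89, 6.59 and 6.62. The groups did not overlap in either fraction, where 28.2% of genes on polysomes and 27.7% in total RNA were higher without overlap. Polysome RNA was higher by 2.20 ± 0.33 (adjusted p = 4.2e-05), total RNA by 1.10 ± 0.19 (adjusted p = 0.000266) and efficiency by 1.10 ± 0.35 (adjusted p = 0.0438). About as much of the polysome difference was thus in the amount of RNA as in its placement on polysomes, and the efficiency call was lost without any 1 of the 6 cultures other than non-inducible replicate 3 (adjusted p = 0.1 to 0.187).

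Samd4b was also higher in both fractions, with 9.48, 9.30 and 9.14 against 7.67, 7.90 and 8.33 on polysomes and 7.19, 6.92 and 7.03 against 6.24, 6.22 and 6.12 in total RNA. Its polysome RNA was higher by 1.34 ± 0.25 (adjusted p = 0.000282), total RNA by 0.85 ± 0.20 (adjusted p = 0.0029) and efficiency by 0.49 ± 0.30 (adjusted p = 0.371). Nr2f2 was higher by 2.00 ± 0.56 in heavy polysome RNA (adjusted p = 0.00912) and by 0.94 ± 0.27 in the total fraction (adjusted p = 0.0126). Its total RNA call was lost without 4Ei-4 replicate 1 (0.0645) or non-inducible replicate 2 (0.0751).

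For the other 5 called members the difference in total RNA was not called, which does not show that it was absent. Sox4 had 12.59, 12.62 and 12.50 on heavy polysomes with 4Ei-4 against 10.80, 11 and 10.93, higher by 1.66 ± 0.41 (adjusted p = 0.004). In total RNA it had 9.76, 9.64 and 9.43 against 9.12, 9.29 and 9.22, a difference of 0.40 ± 0.24 (adjusted p = 0.281). On polysomes Lpin2 was higher by 1.74 ± 0.41 (adjusted p = 0.00264), Palld by 1.5 ± 0.50 (adjusted p = 0.0275), Ccnd2 by 1.18 ± 0.32 (adjusted p = 0.00683) and Pdxk by 0.90 ± 0.24 (adjusted p = 0.00727). In total RNA Lpin2 differed by 0.91 ± 0.34 (adjusted p = 0.0609, and 0.0285 among genes detected on every array), Ccnd2 by 0.39 ± 0.19, Palld by 0.21 ± 0.25 and Pdxk by 0.15 ± 0.16 (adjusted p = 0.157, 0.683 and 0.631). The Palld polysome call was lost in the same 5 omissions (adjusted p = 0.0541 to 0.0913).

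Bach1 and Ddx6 were not called on polysomes. Bach1 had 9.41, 9.09 and 9.06 there against 8.12, 8.68 and 8.91, groups that do not overlap, with a difference of 0.62 ± 0.50 (adjusted p = 0.429) and one of 1.00 ± 0.57 in efficiency (adjusted p = 0.321). Whether Bach1 differed from the called members was not tested. Ddx6 had 10.93, 10.82 and 10.67 on polysomes against 10.77, 10.87 and 11.26, which overlap (-0.16 ± 0.39, adjusted p = 0.88). Its total RNA was 8.5, 8.59 and 8.31 against 8.99, 9.13 and 9.16, lower by 0.62 on the log2 scale (log2 change -0.62 ± 0.16, adjusted p = 0.00669). In efficiency 9 of 10 members had each 4Ei-4 culture above each non-inducible culture, where 22.5% of genes did, as did 9 on polysomes (28.2% of genes). The efficiency differences of the probes that stand for the 10 genes ran from 0.47 to 1.29, and other probes of Nr2f2 and Ddx6 went the other way, as given below.

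**Figure D5:**
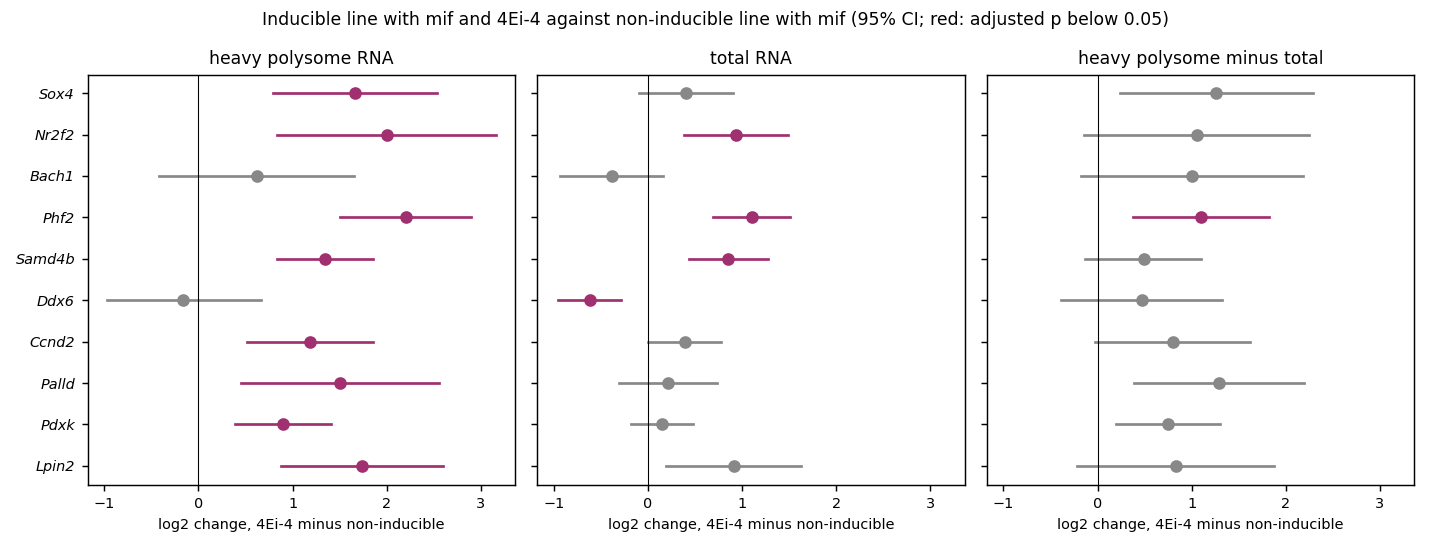
Fitted log2 difference with 95% interval (x axis) between the inducible line with mif and 4Ei-4 and the non-inducible line with mif, both in batch 4, for the 10 genes (y axis) in 3 measures. Adjusted p was below 0.05 for 8 genes on heavy polysomes, for 4 in total RNA (Ddx6 lower) and for Phf2 in efficiency. The efficiency differences of Palld and Sox4 were larger than that of Phf2 but were not called.

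Second probes divided in this contrast, in a fit over 24499 probes. Those of Ccnd2 (1.01 ± 0.35, adjusted p = 0.0406) and Palld (0.85 ± 0.27, adjusted p = 0.0265) were higher on polysomes as well. That of Nr2f2 was higher in total RNA by 0.95 ± 0.26 (adjusted p = 0.0116), close to the first, but its polysome RNA differed by -0.24 ± 0.24 (adjusted p = 0.581). The 4 other Ddx6 probes were lower on polysomes, with log2 changes of -0.56 ± 0.20, -1.80 ± 0.27, -2.27 ± 0.26 and -1.81 ± 0.40 (adjusted p = 0.0462, 5.41e-05, 3.16e-06 and 0.00196). The second Pdxk probe differed by -0.29 ± 0.40 (adjusted p = 0.742). In mean efficiency the second Nr2f2 probe was lower with 4Ei-4 than in the non-inducible line with mif (-0.38 against 0.80). So were the other Ddx6 probes detected on at least 40 arrays (-0.49 against 0.10, 0.92 against 1.77 and 0.44 against 1.26). The second probes of Ccnd2 (2.43 against 1.60), Palld (0.98 against 0.37) and Pdxk (1.46 against 1.41) were higher.

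The 2 lines with mif and no drug lie in different batches, so this comparison used batch as a random block, and 0 members were called in any of the 3 measures, where 0% (efficiency), 2.57% (polysome RNA) and 6.24% (total RNA) of genes were. At an unadjusted p below 0.05 stood 1, 4 and 2 members. Polysome RNA was 2.01 ± 0.61 higher in the inducible line for Phf2 (adjusted p = 0.0874) and 1.31 ± 0.47 for Samd4b (adjusted p = 0.153), values near those of the contrast inside batch 4 (2.20 and 1.34), with which it shares the 3 non-inducible cultures. Without drug-free replicate 3 the Phf2 polysome difference was called (2.38, adjusted p = 0.0381), as was Samd4b in total RNA (1.09, adjusted p = 0.0359). In efficiency the members' median was 0.62, from -0.14 (Ddx6) to 1.49 (Phf2).

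Mif in the non-inducible line was compared with 1 culture, and 0 members were called in any of the 3 measures, as were 0% of genes in each (0, 0 and 0 members unadjusted). Efficiency changed by -0.96 (Phf2) to -0.01 (Ddx6), median -0.26, with half-widths of 0.78 to 1.69. In 7 of 10 members each culture with mif lay below the 1 without it, where 25.9% of genes did. The effect of mif differed between the lines by a median of 0.17 in efficiency, with 0 members called against 0%, 0.0395% and 0.0316% of genes (1, 0 and 0 unadjusted) and an interval of 0.09 to 2.66 for Phf2 (1.38 ± 0.62, adjusted p = 1).

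Of 15 listed paralogs 11 were tested, with a median efficiency of 0.69 (all tested genes 0.05), and 4 were above 1, where 5.09% of tested genes were. Ccnd1 had 1.16 ± 0.26 and Ccnd3 1.05 ± 0.20, the other D cyclins, and Lpin3 had 1.25 ± 0.69 and Phf8 1.11 ± 0.73 on dim probes. Kdm7a had 0.71 ± 0.49, Samd4 0.69 ± 0.61, Nr2f6 0.52 ± 0.32, Lpin1 0.09 ± 0.42, Mypn 0.02 ± 0.48, Sox11 0.00 ± 0.32 and Sox12 -0.24 ± 0.33. The members were picked at the top of the same values, so a paralog below its member is no finding. Ccnd1 was higher in the inducible line with mif than in the non-inducible line, by 1.81 ± 0.35 in heavy polysome RNA (adjusted p = 0.00435) and 2.20 ± 0.36 in the total fraction (adjusted p = 0.00071).

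The decapping, deadenylation and P-body factors around Ddx6 and Samd4b spread over the whole scale. Of 35 tested of 41, 4 were above 1 and the median was 0.13. Ago2, the slicing Argonaute, had 1.56 ± 0.53 and Tob2, which bridges to deadenylases, 1.23 ± 0.55, whereas the small decay-ring subunits Lsm5 and Lsm3 had -1.93 ± 0.42 and -1.77 ± 0.40. Tob1 was the gene of these lists called higher on induction, by 1.22 ± 0.23 in heavy polysome RNA (adjusted p = 0.0155) and 1.20 ± 0.17 in the total fraction (adjusted p = 0.000988). Zfp36l2, which binds AU-rich elements and was detected on 26 of 50 arrays, fell from 50 to 200 µM 4Ei-1 by 1.94 in efficiency (adjusted p = 0.016) and by 1.17 on polysomes (adjusted p = 0.0415).

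The other lists had medians between -0.23 and 0.32. Among G1 cell cycle genes the inhibitor Cdkn2c had -0.82 ± 0.65 and the kinase Cdk4 -0.19 ± 0.62. Around Bach1, the NRF2 adaptor Keap1 had 0.87 ± 0.31 and the haem oxygenase Hmox1 0.56 ± 0.52, while the ferritin chains Ftl1 and Fth1 had -0.93 ± 0.61 and -0.54 ± 0.72. Around Palld, the adhesion protein Lpp had 1.51 ± 0.79 and Lasp1 1.05 ± 0.26, while vinculin (Vcl) and profilin (Pfn1) had -0.90 ± 0.53 and -0.84 ± 0.58. Among glycerolipid genes Plpp3 had 0.72 ± 0.65 and Cept1 -1.31 ± 0.55, and among vitamin B6 enzymes and users Shmt1 had 0.52 ± 0.30 and Sptlc1 -0.86 ± 0.48. Among related transcription factors Sox5 had 1.33 ± 0.49. Among histone demethylases Kdm2a had 1.46 ± 0.57 and Kdm3a -0.48 ± 0.30.

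Over the 129 tested genes on these lists, limma called 0 in efficiency for the induction and for each 4Ei-1 dose against no drug. In the contrast inside batch 4 it called 9 higher and 15 lower in efficiency, where 6.58% and 5.11% of all tested genes were called. It called 22 and 24 in heavy polysome RNA (16% and 15.5% of all tested genes), and 22 and 18 for the total fraction (12.6% and 12%). The members' 8 higher and 0 lower on polysomes stand beside those counts. The members were picked by heavy minus total values that include these cultures, so the counts are not alike in kind. Inside batch 4 Edc4, a scaffold of decapping, was higher by 2.03 ± 0.21 on polysomes (adjusted p = 6.8e-07) and by 1.68 ± 0.25 in efficiency (adjusted p = 0.000714). Zfp36l1 and Cnot7 were lower there in efficiency, with log2 changes of -1.29 ± 0.19 and -1.82 ± 0.28 (adjusted p = 0.000754 and 0.000817). Plpp2 was higher by 3.7 ± 0.23 on polysomes (adjusted p = 1.49e-09) and by 4.45 ± 0.14 in total RNA (adjusted p = 4.15e-14). On induction Kdm4b was lower in total RNA (-0.93 ± 0.17, adjusted p = 0.00989).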

How the data were processed

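The members, gene lists and tests were chosen with earlier results of these data known. The deposited table holds, per the file headers, a linear intensity and a detection p-value for each of 45281 probes on 50 arrays. The authors also deposited log2 values, with no account of their normalization in the sources used here. Intensities were background-corrected with limma 3.58.1 (R 4.3.3; normal-exponential model with the detection p-values, offset 16), put on the log2 scale and quantile-normalized over all arrays. Of 34885 probes with 1 symbol, 34807 matched RefSeq by gene ID; 18 had several symbols and 10378 had none. A gene was read from its brightest probe on average and entered the tests if 3 or more arrays had a detection p-value under 0.05. Each measure was fitted with lmFit and eBayes over the 25 cultures with fixed batch terms. Batch was a random block (statmod 1.5.0) for 4Ei-4 against no drug, 4Ei-1 against 4Ei-4, and the lines. Adjusted p-values are limma's (Benjamini-Hochberg over 12644 genes), errors are SE for changes and SD for levels, and p-values measure the spread of these cultures, which may be technical. The fits were also run on simulated data with independent genes and the same spread in every group. These data differ in both, so that run does not check the fits under their conditions. Named related genes were, per list, those of highest and lowest efficiency detected on all 50 arrays, each paralog, and called genes of smallest adjusted p; Bcl9l, Dpysl3 and Crtc3 are neighbours in rank. The number of arrays limits the precision. Same-numbered replicates did not vary together (30 of 84 correlations above 0.1 in efficiency), so numbers were not taken as pairs. No 2 arrays were identical.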

Additional observations from a re-analysis of the deposited data

How the results depend on the processing

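Of 590 alternative values of counts and levels, 568 stayed within their limits and 22 moved. No call reversed, and 148 of 2938 recomputed changes of members changed sign. The members' median level was 2.02, 1.38 with the authors' log2 values and 1.09 over the other probes. The count in efficiency inside batch 4 was 1 member, where 6.58% of tested genes were called higher. It was 3 without background correction (7.62% of genes), 2 with quantile normalization within each fraction (7.18%) and 3 with the authors' log2 values (8.04%). Among genes detected on every array it was 4 (19.4%). It was 0 with no filter (3.79%), 0 with no batch term (3.85%) and 0 with the replicate block (5.52%). It was 6 (10.6%) with efficiency divided by its SD over all genes of the culture, a setting chosen after seeing the data. Leaving out cultures gave 0 to 1 there, 7 to 8 on polysomes and 3 to 4 in total RNA. For 4Ei-1 at 100 µM in total RNA it gave 0 to 2: 1 without 100 µM replicate 1 (Ddx6) and 2 without drug-free replicate 3 (Ddx6 and Bach1). For the lines it gave 0 to 1 on polysomes and 0 to 1 in total RNA, the 1 (Phf2 and Samd4b) without drug-free replicate 3. With no batch term the lines gave 4 on polysomes (Phf2, Samd4b, Ccnd2 and Lpin2) and 2 in total RNA, and the dose trend on polysomes gave 1 (Pdxk, 0.43 per 100 µM, adjusted p = 0.0427). For the lines and the trend with no batch term, and for the omissions of cultures, the share of all genes called was not counted. Inside batch 4 Palld on polysomes was not called without background correction (0.0513), with the authors' values (0.0628), with no filter (0.0535) or with no batch term (0.067), and Ddx6 in total RNA was not called with no batch term (0.189). Phf2 in efficiency was not called with no filter (0.0624), no batch term (0.0839) or the replicate block (0.0575). The replicate block changed no other call of a member. The cause of these changes was not tested. The 1 non-inducible culture without mif could not be left out, and within-batch fits gave values without tests.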
